A study of Homo sapiens with 16 samples.

Results

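Of 37 integrin and laminin subunit genes listed for description, 35 could be judged, and 4 of these had an AIB1 binding region within 100 kb of the transcription start site (TSS) in at least 1 of 4 deposited lists. That is 11.4%, against 6.80% of all protein-coding genes judged the same way. The genes were listed by family name and comprised 25 integrin and 10 laminin genes among 18872 protein-coding genes on chromosomes 1 to 19 and X. ITGB2, on chromosome 21, and LAMA5, on chromosome 20, were not judged, because no list held a region on chromosomes 20 to 22. The TSS was that of the Ensembl canonical transcript, and distances ran from the TSS to the nearer edge of the region.

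Chromatin immunoprecipitation sequencing (ChIP-seq) with an AIB1 antibody was run on 2 human breast epithelial lines, MCF10A, which does not form tumors, and MCFDCIS, labelled as a ductal carcinoma in situ line, and on a D4 counterpart of each. Per group there were 3 ChIP samples and 1 input sample. The shared medium held insulin, EGF, horse serum, cholera toxin and hydrocortisone, a glucocorticoid. D4 refers to the AIB1 isoform named in the series title. The sources used here do not say how the D4 lines were made or whether each is 1 clone. The authors deposited 1 list of regions, called clusters here, per group and no value per sample, so no replicate error or test could be given for any count. File names and sample descriptions assign the lists to opposite lines, so the lists are called MCF10A-named and MCFDCIS-named, each parental or D4, and which cell line a name stands for is open to doubt. They held 490 clusters (MCF10A-named parental), 138 (MCF10A-named D4), 651 (MCFDCIS-named parental) and 99 (MCFDCIS-named D4), and sequencing depth is unknown. Lists of regions measure no expression, so the labelled cell type could not be checked against its markers.

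AIB1, encoded by NCOA3, is a nuclear receptor coactivator that reaches DNA through transcription factors rather than by binding it directly. Integrins are cell surface receptors made of an alpha and a beta subunit, and they connect the cytoskeleton to the extracellular matrix. Laminins are trimers of an alpha, a beta and a gamma chain and form the sheet of the basement membrane. In mammary epithelium the basal cells rest on that membrane, and hemidesmosomes, which pair the ITGA6 and ITGB4 products, bind the laminin that contains the LAMA3 and LAMB3 chains.

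The 4 genes ITGB6, ITGA3, ITGB3 and ITGB4 together had 5 different clusters within 100 kb, and the sequences of 4 of these are shown because they carry the result. Each is given as 200 bases of the plus strand of GRCh37 centred on the cluster, with capitals marking matches to consensus motifs searched on both strands. The motifs were AP-1 (TGANTCA), the glucocorticoid response element or GRE (half-sites ACA and TGT, 3 bases apart, each with an outer G or C beyond 1 free base), TEAD (GGAATG), RUNX (TGTGGT) and a p53 family core (a pair of CATG cores 6 bases apart). A match is a description of the letters and not evidence of binding.

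ITGB6, chr2:161085205-161085404: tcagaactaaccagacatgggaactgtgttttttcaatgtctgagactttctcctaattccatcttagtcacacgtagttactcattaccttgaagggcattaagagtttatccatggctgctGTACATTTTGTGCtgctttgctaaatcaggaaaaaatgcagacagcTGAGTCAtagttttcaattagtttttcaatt
ITGA3, chr17:48105805-48106004: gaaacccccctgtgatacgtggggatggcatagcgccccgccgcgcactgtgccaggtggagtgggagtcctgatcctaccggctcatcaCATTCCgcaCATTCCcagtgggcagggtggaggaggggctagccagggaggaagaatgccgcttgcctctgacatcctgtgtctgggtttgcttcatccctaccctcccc
ITGB3, chr17:45307480-45307679: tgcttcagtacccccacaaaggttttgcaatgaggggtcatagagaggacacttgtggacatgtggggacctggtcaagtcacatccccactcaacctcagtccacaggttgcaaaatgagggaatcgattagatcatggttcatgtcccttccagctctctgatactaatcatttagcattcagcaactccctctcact
ITGB4 farther cluster, chr17:73684405-73684604: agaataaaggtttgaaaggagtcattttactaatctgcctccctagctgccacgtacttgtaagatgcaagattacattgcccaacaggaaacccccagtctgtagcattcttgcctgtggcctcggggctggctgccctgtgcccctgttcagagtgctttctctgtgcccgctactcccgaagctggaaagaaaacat

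In the ITGB6 sequence the capitals are a GRE match at bases 124 to 136 and an AP-1 match at bases 170 to 176. In the ITGA3 sequence they are TEAD matches at bases 91 to 96 and 100 to 105. The ITGB3 and farther ITGB4 sequences held no match in this window.

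Integrin genes near a cluster were found mainly in the parental lists, and they were few. ITGB6, ITGA3 and ITGB3, 3 of 35 genes, had an MCF10A-named parental cluster within 100 kb, and the share over all protein-coding genes was 4.02%. ITGB6, ITGA3 and ITGB4, also 3 of 35, had an MCFDCIS-named parental cluster, against 6.19% of all genes. ITGB4 alone, 1 of 35, had an MCF10A-named D4 cluster, against 0.996% of all genes. For MCFDCIS-named D4 clusters the count was 0 of 35, against 1.53%. The members' shares were thus 8.57%, 8.57%, 2.86% and 0%. At the shares over all genes, 35 genes would give 1.41, 2.17, 0.349 and 0.536 in the same order, so each count lies within 2 genes of that background. An even spread of each chromosome's clusters along its sequence would place 1.58 and 1.94 members near a parental cluster, and 0.483 and 0.323 near a D4 cluster, in the MCF10A-named and MCFDCIS-named lists. Clusters are in fact unevenly spread, so these values are a scale and not a test.

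**Figure D1:**
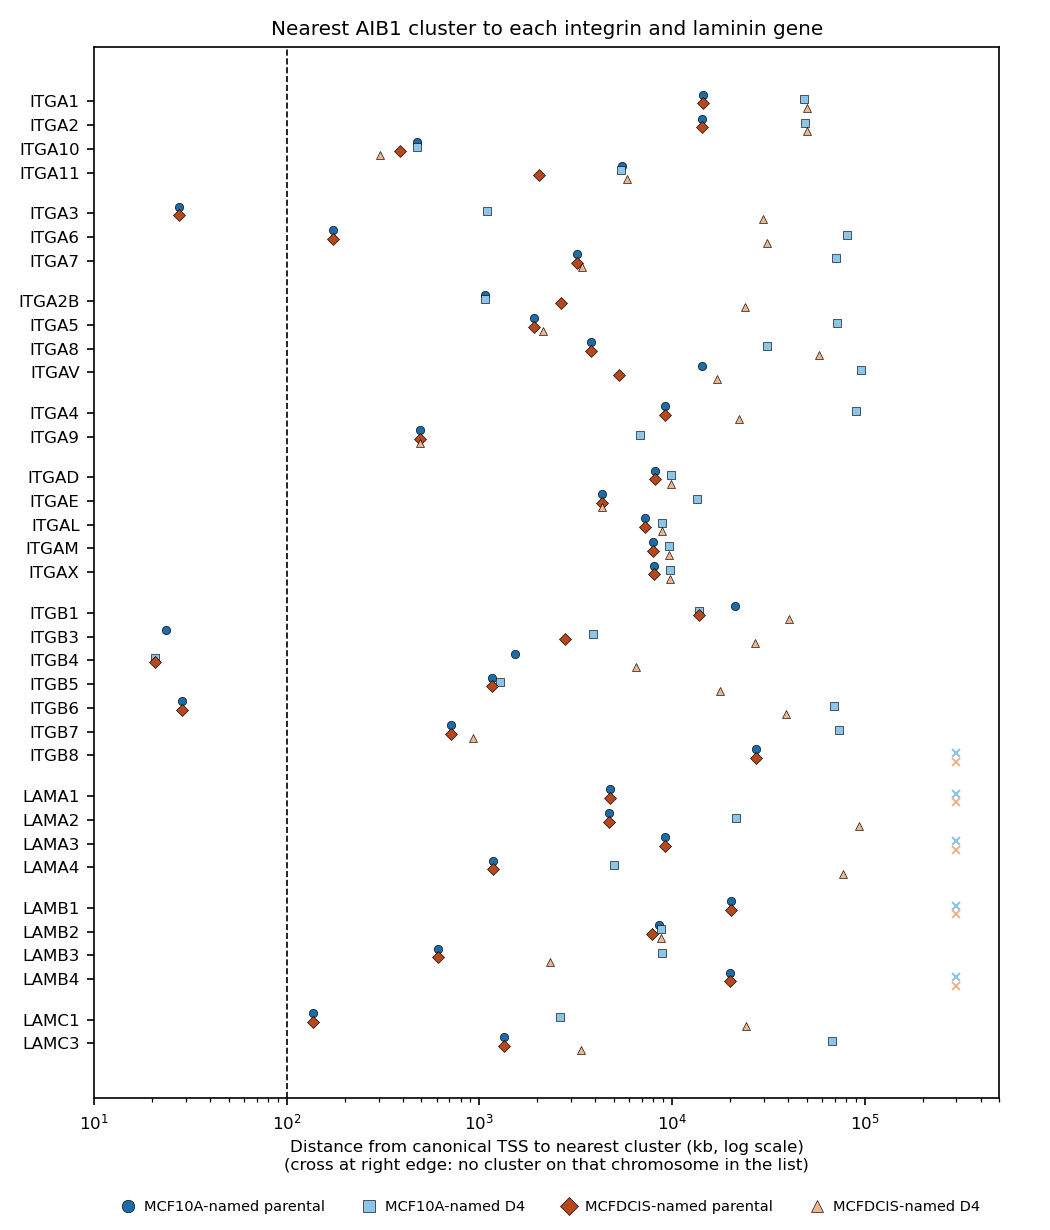
Distance in kb, on a log axis, from the TSS of each of the 35 judged genes to the nearest cluster of each list, with the dashed line at 100 kb. Only ITGA3, ITGB3, ITGB4 and ITGB6 have symbols left of the line, and 5 genes lie on chromosomes without a cluster in either D4 list.

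The 5 clusters near the 4 integrin genes were all upstream of the TSS, at 20.8 to 33.0 kb, and none lay in the body of any of the 35 genes. Over all genes, 52.1% (MCF10A-named) and 52.4% (MCFDCIS-named) of gene and parental cluster pairs within 100 kb were upstream, and 18.1% and 17.9% were in the gene body. Of all genes, 1.81% had a cluster in the body in any list. The clusters were 10 to 110 bp wide, and the GC content of their central 500 bp was 34.6% to 59.6%. The integrin gene was the nearest protein-coding gene for 3 of the 5. The central 100 bp of none of the 5 had another close match in the genome, at an identity of 95% or more over 90 bp or more.

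ITGB6 encodes the beta subunit of an epithelial integrin that binds fibronectin and latent TGF-beta. Its cluster at chr2:161085251-161085360, 28.5 kb upstream, was in both parental lists and in neither D4 list. It ranked 24 of 651 by the authors' deposited score in the MCFDCIS-named parental list, within the top 3.69%, and 139 of 490 in the MCF10A-named one. The former was the highest relative rank of any of the 5 clusters. No other protein-coding TSS lay within 100 kb, and the cluster overlapped the long noncoding RNA gene ENSG00000285155. The nearest D4 clusters of the MCF10A-named and MCFDCIS-named lists were 69.3 and 39.1 Mb away.

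The ITGB6 sequence combined an AP-1 and a GRE match. In the central 500 bp, the AP-1 consensus was in 35.7% of all MCF10A-named parental clusters and 37.6% of MCFDCIS-named ones, against 15.5% and 15.6% of windows of the same length 5 kb to either side. The GRE consensus was in 10.0% and 8.91%, against 0.816% and 0.922% of those windows. Both matches together were in 21 of 490 and 25 of 651 parental clusters, or 4.29% and 3.84%.

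ITGA3 encodes the alpha subunit of a laminin receptor of epithelial cells. Its cluster at chr17:48105851-48105960 was 27.5 kb upstream, also in both parental lists and in neither D4 list. It ranked 143 of 490 in the MCF10A-named parental list and 515 of 651 in the MCFDCIS-named one, so it was among the weaker clusters of the latter. ITGA3 was the nearest protein-coding gene, and 3 others had a TSS within 100 kb, among them DLX3 and DLX4, homeobox genes. The nearest D4 clusters were at 1.10 Mb (MCF10A-named) and 29.7 Mb (MCFDCIS-named). Besides the TEAD matches shown, an AP-1 match lay at bases 4 to 10 of the central 500 bp, outside the printed sequence. TEAD matches were in 38.8% and 37.2% of all parental clusters, against 24.3% and 26.3% of flanking windows.

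ITGB3 encodes the beta subunit shared by the platelet fibrinogen receptor and a vitronectin receptor. Its cluster at chr17:45307551-45307610, 23.6 kb upstream, was in the MCF10A-named parental list only, where it ranked 145 of 490. MYL4, a myosin light chain gene, was nearer at 20.8 kb, and 4 other protein-coding genes in all had a TSS within 100 kb. The nearest cluster of the MCFDCIS-named parental list was 2.77 Mb from the ITGB3 TSS, and those of the D4 lists were 3.90 and 26.9 Mb away. The only motif match in the central 500 bp was RUNX, at bases 494 to 499, a motif found in 35.9% of clusters and 31.7% of flanking windows of that list.

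ITGB4 encodes the beta subunit of the hemidesmosome integrin and was the only member near a D4 cluster. The nearer cluster lay 20.8 kb upstream in intron 5 of the neighbouring gene SAP30BP. It ranked 31 of 138 among MCF10A-named D4 clusters and 158 of 651 among MCFDCIS-named parental ones, and the other lists did not hold it. The MCF10A-named parental list had no cluster within 1.53 Mb of the TSS, and the MCFDCIS-named D4 list none within 6.54 Mb. A farther cluster, chr17:73684501-73684510, in intron 3 of SAP30BP and 33.0 kb upstream, was in the MCFDCIS-named parental list only and ranked 396 of 651. Both ITGB4 clusters were 10 bp wide, the smallest width in the files, and 7 other protein-coding genes had a TSS within 100 kb of each. The presence of ITGB4 therefore ran in opposite directions between the line names, D4 only in the MCF10A-named pair and parental only in the MCFDCIS-named pair, and this difference was not tested.

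**Figure D2:**
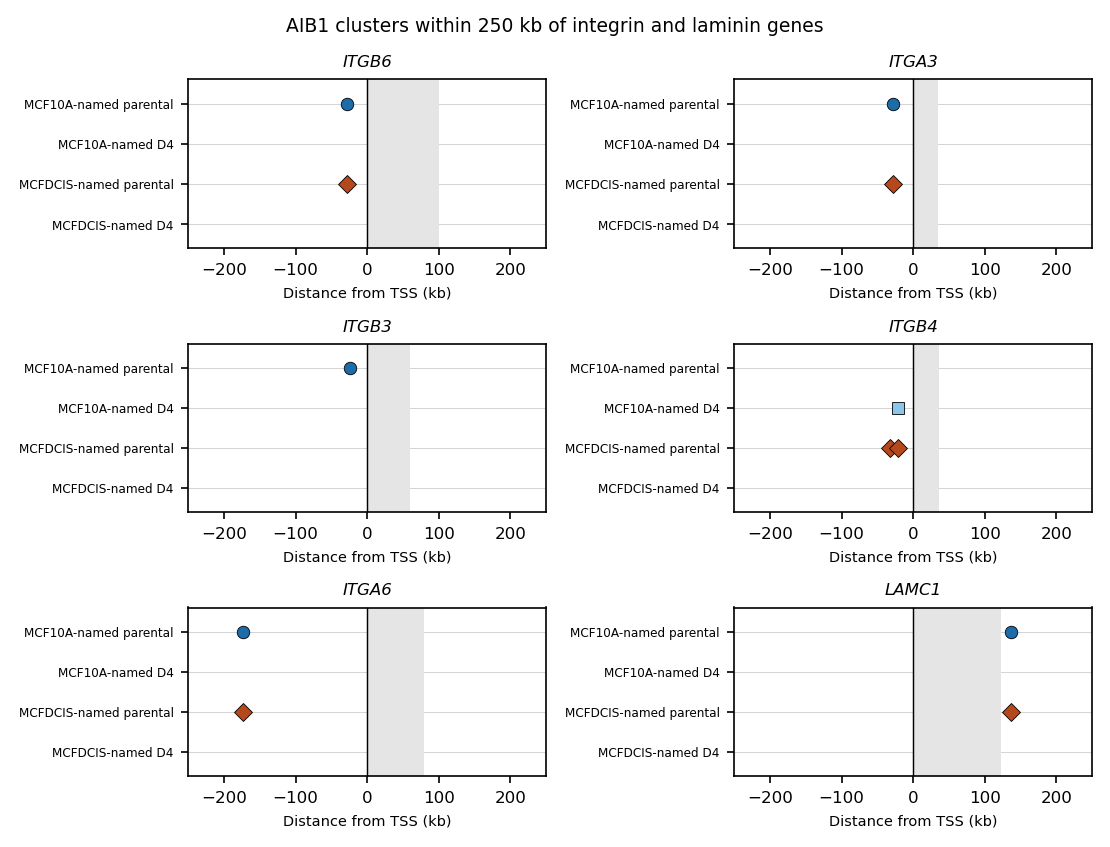
Clusters within 250 kb of 6 genes, by list, with the x axis giving the distance from the TSS in kb, negative upstream, and the grey band the gene body. The clusters of ITGB6, ITGA3, ITGB3 and ITGB4 lie 20.8 to 33.0 kb upstream, and those of ITGA6 and LAMC1 beyond 100 kb.

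No integrin or laminin gene was near a cluster in both the parental and the D4 list of a pair. Parental only genes numbered 3 in each pair, D4 only genes 1 (MCF10A-named) and 0 (MCFDCIS-named), and genes in both 0. Of all protein-coding genes, 3.38% (MCF10A-named) and 4.81% (MCFDCIS-named) were parental only, and 0.355% and 0.154% were D4 only. Over all genes 0.641% were near a cluster in both MCF10A-named lists and 1.38% in both MCFDCIS-named lists, so 0 of 35 is close to what these shares give. Likewise 0 of the 3 and 4 clusters near members in the parental lists were shared with the D4 list of the same name, and over all clusters 67 of 490 MCF10A-named parental clusters (13.7%) and 65 of 651 MCFDCIS-named ones (9.98%) were shared, so 0 of so few is close to these shares. As shares of the D4 lists they were 67 of 138 and 65 of 99. Between the parental lists, 2 clusters near members were common, out of 3 and 4, and over all clusters 307 were, 62.7% of 490 and 47.2% of 651. The ITGB6 and ITGA3 clusters are these 2.

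ITGA6 and LAMC1 were the members just outside the window. ITGA6 encodes the other subunit of the hemidesmosome integrin. A cluster at chr2:173118101-173118160, in both parental lists, lay 174.2 kb upstream of its TSS, over the long noncoding RNA gene ENSG00000232555, with DLX2 nearer at 150.5 kb. It ranked 233 of 490 and 269 of 651. Its sequence is printed because it holds 3 AP-1 matches in 200 bases, a choice made after the matches were seen.

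ITGA6, chr2:173118030-173118229: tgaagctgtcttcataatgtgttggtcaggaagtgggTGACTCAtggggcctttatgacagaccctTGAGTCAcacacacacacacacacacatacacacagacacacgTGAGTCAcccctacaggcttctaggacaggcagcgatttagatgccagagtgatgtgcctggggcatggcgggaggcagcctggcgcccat

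The AP-1 matches, in capitals, lay at bases 38 to 44, 67 to 73 and 110 to 116. LAMC1, which encodes a gamma chain of most laminins, had a cluster in both parental lists at chr1:183129251-183129310, 136.7 kb downstream of its TSS and beyond its gene body. LAMC1 was not the nearest gene to that cluster, which held 0 matches to the motifs in its central 500 bp.

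No laminin gene had a cluster within 100 kb in any list, among 4 alpha chain, 4 beta chain and 2 gamma chain genes judged. LAMB3, a chain of the hemidesmosome ligand, was 612.9 kb from a cluster in both parental lists, and LAMA3, its partner chain, 9.25 Mb. LAMA4, of blood vessel and mesenchymal laminins, was 1.18 Mb from one, LAMC3 1.35 Mb and LAMA2, of muscle laminin, 4.73 Mb. LAMA1 was at 4.74 Mb, LAMB2 at 8.52 and 7.87 Mb from MCF10A-named and MCFDCIS-named parental clusters, and LAMB4 and LAMB1 at 20.1 and 20.2 Mb. The D4 lists had no cluster on chromosomes 7 and 18, so LAMB1, LAMB4, LAMA1, LAMA3 and ITGB8 had no nearest D4 cluster. The other 6 laminin genes were 2.33 Mb or more from a D4 cluster.

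Among the collagen receptors, 0 of 4 alpha subunit genes were near a cluster. ITGA1 and ITGA2, which lie side by side on chromosome 5, were 14.5 and 14.3 Mb from the nearest parental cluster and 48.8 Mb or more from D4 clusters. ITGA11 was 2.04 Mb or more from one in every list. ITGA10 had clusters 304.8 to 477.2 kb away in all 4 lists, but 19 or 20 other genes were nearer to them. These clusters lay at or near PDE4DIP, NUDT4B and NOTCH2NLR, and the one of the MCFDCIS-named D4 list had 1 other close match in the genome.

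The RGD-binding alpha subunit genes, whose receptors recognise fibronectin and vitronectin, had 0 of 4 near a cluster. ITGA2B was 1.07 Mb from a cluster in both MCF10A-named lists and 2.65 Mb in the MCFDCIS-named parental list, ITGA5 was 1.92 Mb from a parental cluster, ITGA8 3.82 Mb and ITGAV 14.3 and 5.31 Mb. Of the alpha4 and alpha9 pair, ITGA9 was 494.0 kb from a cluster in both parental lists and in the MCFDCIS-named D4 list, with VILL nearest to it, and ITGA4 was 9.20 Mb from a parental cluster. The laminin receptor gene ITGA7, of muscle, was 3.21 Mb away.

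The leukocyte integrin genes, which mark blood cells rather than epithelium, also had 0 of 5 near a cluster. ITGAL, ITGAM, ITGAX and ITGAD, which share a stretch of chromosome 16, were 7.21 to 8.13 Mb from parental clusters and 8.92 to 9.84 Mb from D4 clusters. ITGAE was 4.35 Mb from a cluster in 3 lists and 13.6 Mb in the MCF10A-named D4 list. Of the remaining beta subunit genes, ITGB7, another leukocyte gene, was 712.5 kb from the parental cluster at KRT6A, a keratin gene, and ITGB5 was 1.17 Mb from a parental cluster. ITGB1, whose product pairs with most alpha subunits, was 21.3 Mb from an MCF10A-named and 13.8 Mb from an MCFDCIS-named parental cluster. ITGB8 was 27.4 Mb from both.

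The median distance to the nearest parental cluster was 4.35 Mb (MCF10A-named) and 3.82 Mb (MCFDCIS-named), against 3.02 and 2.38 Mb over all genes. For D4 lists the medians over genes on chromosomes with a cluster were 9.82 and 13.5 Mb (30 of 35 genes), against 15.3 and 9.84 Mb. Within 250 kb, 5 of 35 members had a cluster in each parental list (9.03% and 12.5% of all genes), 1 in the MCF10A-named D4 list (2.47%) and 0 in the MCFDCIS-named D4 list (3.12%). Within 1 Mb the counts were 9 and 9 in the parental lists and 2 and 3 in the D4 lists, against 26.9%, 32.0%, 8.52% and 9.98% of all genes. At those shares 35 genes would give 9.40, 11.2, 2.98 and 3.49, so the counts at this scale are near those of all genes. Of the 4 genes near a cluster, 3 lay on chromosome 17, which held 5 of the 35 members and 59 of 490, 20 of 138, 67 of 651 and 10 of 99 clusters.

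**Figure D3:**
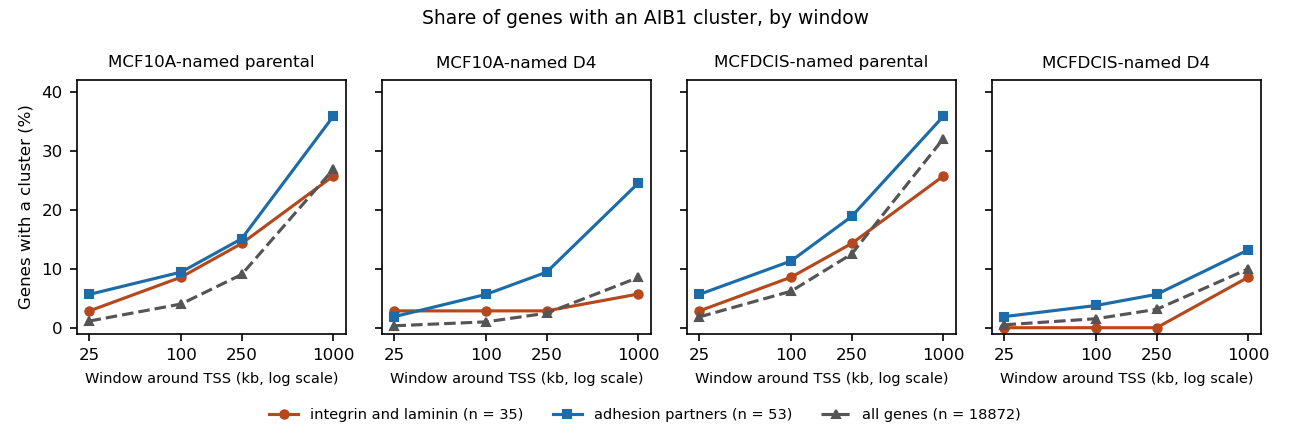
Percent of genes with a cluster against the window around the TSS (kb, log axis), for 35 integrin and laminin genes, 53 adhesion partner genes and 18872 protein-coding genes, 1 panel per list. At 100 kb the integrin and laminin line stands for 3 genes in each parental panel, and at 1000 kb for 9, where it lies close to the line of all genes in the MCF10A-named parental panel.

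Genes for the partners of integrins were compared by the same rule, from a list of 57 of which 53 could be judged. FERMT1, SRC and SDC4 on chromosome 20 and PARVB on chromosome 22 were not judged. The list held hemidesmosome and surface partners, basement membrane proteins, other matrix ligands and cytoplasmic adhesion proteins. Near an MCF10A-named parental cluster were 5 of 53 and near an MCF10A-named D4 cluster 3, or 9.43% and 5.66%, where an even spread would give 2.17 and 0.631 genes. Near an MCFDCIS-named parental cluster were 6 and near an MCFDCIS-named D4 cluster 2, or 11.3% and 3.77%, where it would give 2.75 and 0.421. The shares over all genes were those given above. All came from 2 of the 4 groups. They were 2 of 8 hemidesmosome and surface partners and 4 of 26 cytoplasmic proteins, and 0 of 10 basement membrane and 0 of 9 matrix ligand genes were near a cluster. Over all genes 6.80% were near a cluster in any list, so 0 of so few genes is close to that share, and no difference between the groups was tested. A cluster lay in the gene body of 4 of the 53, 1 of them (TLN2) outside the 100 kb window, and of 0 of the 35 integrin and laminin genes, against 1.81% of all genes. This difference was not tested.

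ACTN4 and ACTN1 encode alpha-actinins, which bind actin and integrin tails. ACTN4 had 4 clusters in intron 1 and another 87.8 kb upstream, and every list held at least 1 of them, but the D4 cluster of the MCFDCIS-named list at chr19:39145701-39145710 was in no other list. All 4 in intron 1 were 10 bp wide, the smallest width in the files. They ranked 213 and 237 of 490 and 437 and 484 of 651 in the MCF10A-named and MCFDCIS-named parental lists. In the D4 lists the ranks were 117 of 138 and 68 of 99. The upstream cluster, in the MCFDCIS-named parental list only, was 310 bp wide and lay in an intron of RYR1, with MAP4K1 nearer. ACTN1 had a single cluster, chr14:69408801-69408860, in intron 1, in both D4 lists and the MCFDCIS-named parental list and not in the MCF10A-named parental list.

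TNS4, which encodes an epithelial tensin that binds integrin tails, had the partner cluster with the highest rank. That cluster, chr17:38666601-38666760, lay 8.73 kb upstream and ranked 12 of 490 and 154 of 651 in the MCF10A-named and MCFDCIS-named parental lists, with 0 clusters near TNS4 in the D4 lists. Its central 200 bases are shown because, like the ITGB6 sequence, they hold an AP-1 match (bases 85 to 91) and a GRE match (bases 124 to 136).

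TNS4, chr17:38666580-38666779: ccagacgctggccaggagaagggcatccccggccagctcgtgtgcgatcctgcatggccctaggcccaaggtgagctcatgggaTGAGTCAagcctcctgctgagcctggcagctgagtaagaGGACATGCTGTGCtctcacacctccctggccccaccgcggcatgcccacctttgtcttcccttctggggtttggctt

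PLEC encodes plectin, which ties the ITGB4 product to keratin filaments. A cluster in its intron 5, chr8:145010751-145010860, was in both parental lists, ranking 55 of 490 and 53 of 651. A second one, 73.0 kb downstream of the TSS in exon 2 of EPPK1, was in both MCF10A-named lists. PTK2, the focal adhesion kinase gene, had a cluster 42.2 kb upstream in both parental lists, at 336 of 490 and 609 of 651. BCAM, a laminin receptor gene, had clusters 34.6 and 67.1 kb upstream in both parental lists, with CBLC and BCL3 nearer to them. TNS4, PTK2 and BCAM were near no D4 cluster, as ITGB6, ITGA3 and ITGB3 were not. Most genes near a parental cluster were likewise near no D4 cluster of the same name. They were 638 of 759 protein-coding genes in the MCF10A-named pair and 908 of 1168 in the MCFDCIS-named pair.

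**Figure D4:**
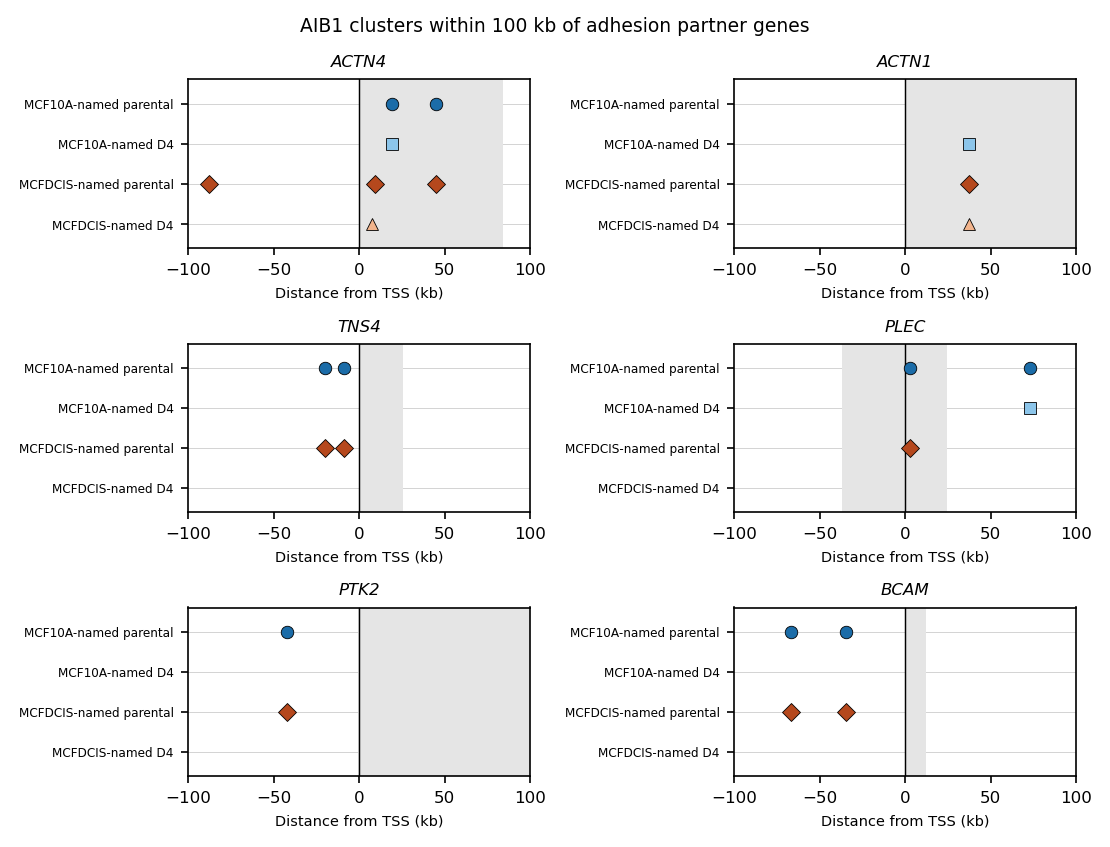
Clusters within 100 kb of 6 adhesion partner genes, by list, with the x axis giving the distance from the TSS in kb, negative upstream, and the grey band the gene body. ACTN4 has a symbol in all 4 lists, and TNS4, PTK2 and BCAM in the parental lists only.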

How the data were processed

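AIB1 ChIP-seq was deposited as 4 lists of clusters for 16 samples, 1 list per group of 3 ChIP samples and 1 input. Besides positions, the lists hold the authors' deposited score, of unstated definition, which was used only to rank or filter within a list. Per the series' design text the values were normalized to input, and the submitters' processing notes name hg19 (GRCh37) as the build. For the aligner, caller, threshold and pooling, the sources used here give nothing. Replicate numbers are in no list.

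Positions were read against the GRCh37 genome with GENCODE release 44 in its lifted form. The window of 100 kb, distances, counts and the even-spread value (the chance that at least 1 of a chromosome's clusters reaches the window, from cluster number, width and ungapped length) were computed in Python 3.11.15 with numpy 2.4.6, pandas 2.3.3 and pysam 0.24.0. Figures used matplotlib 3.10.9. Motifs were sought in the central 500 bp and in windows 5 kb to either side. Overlap meant at least 1 bp. Other close matches of the central 100 bp were sought with minimap2 2.31 (at least 95% identical across 90 bp or more). The distance code was tested on simulated clusters placed at known distances from 200 genes.

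Members and the partner list were chosen with earlier results of these data known. Every member is named, and a partner gene is named where a cluster lay within 100 kb in any list, except that 1 partner gene, which is also left out of the counts, and 1 sequence are not reported here. No test was made, since each group is a single list.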

Additional observations from a re-analysis of the deposited data

Results flagged for a closer look

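The ITGB4 cluster 20.8 kb upstream of the TSS was singled out because D4 against parental presence ran one way in the MCF10A-named pair (in D4, absent from parental) and the other way in the MCFDCIS-named pair (in parental, absent from D4). Each side is 1 list, and the difference was not tested. The line of each list is uncertain, since labels and file names cross. The cluster ranked 31 of 138 in the MCF10A-named D4 list and 158 of 651 in the MCFDCIS-named parental list, so it was not among the lowest clusters of either. It was 10 bp wide, as was the other ITGB4 cluster, and without clusters of that width ITGB4 was near a cluster in 0 of the 4 lists, so the difference rests on clusters of the smallest width.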

How the results depend on the processing

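Lists carry no replicate values and depth is unknown, so presence in a list depends on the authors' threshold. No paired analysis was possible because the lists carry no replicate numbers and no test was made. The 1 Mb window was added after the data were seen. Of 76 values under other settings, 48 stayed within 1.5 times the value reported and 28 moved, most of them through the window. Values follow in the order MCF10A-named parental, its D4 list, MCFDCIS-named parental, its D4 list. Within 1 Mb, 9, 2, 9 and 3 members and 19, 13, 19 and 7 partner genes were near a cluster, and 1 and 3 members were so in both lists of the MCF10A-named and MCFDCIS-named pairs. The share of all genes near a cluster in both lists of a pair was not computed at 1 Mb. Whether these counts in both lists differ from that of all genes is therefore not known. With 250 kb the parental lists had 5 and 5 members, and 8, 5 and 10 partner genes were near a cluster in the first 3 lists. With 25 kb the parental lists had 1 and 1 members (ITGB3 and ITGB4), and 3, 1, 3 and 1 partner genes were near a cluster. Of all genes, 1.14%, 0.334%, 1.84% and 0.498% had a cluster within 25 kb. Without clusters of 10 bp the MCF10A-named D4 list had 0 members, since ITGB4 was lost there and from the MCFDCIS-named parental list, which had 2. The MCF10A-named parental list then had 3 and the MCFDCIS-named D4 list 1 partner gene. Shares over all genes without clusters of 10 bp were 3.09%, 0.551%, 4.21% and 1.14%. With clusters above the median score the D4 lists had 0 and 0 partner genes, and ITGA3 was lost from the MCFDCIS-named parental list. Those clusters were near 2.65%, 0.525%, 3.38% and 0.827% of all genes. In the central 200 bp, 1 rather than 2 clusters near members held an AP-1 match in each parental list. With the TSS of any coding transcript, or the gene body plus 100 kb, LAMC1 joined both parental lists, giving 4 members each. The parental shares over all genes were 4.24% and 6.50% with the former setting and 4.85% and 7.25% with the latter.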

Other observations

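TLN2, which encodes a talin that activates integrins, had a cluster in intron 2 at chr15:62895951-62896060, 213.2 kb from its TSS and so outside the window used for the counts. It was in both MCFDCIS-named lists, ranking 293 of 651 in the parental and 12 of 99 in the D4 list, and in neither MCF10A-named list. It held 0 matches to the 5 motifs in its central 500 bp.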
